A study of Mus musculus with 10 samples.

Results

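The genes followed in these mouse hearts belong to the interleukin-1 (IL-1) family: 4 agonist ligands (Il1a, Il1b, Il18 and Il33), 3 antagonist or decoy genes (Il1rn, Il1r2 and Il18bp) and 3 signalling receptor genes (Il1r1, Il1rap and Il1rl1). These 10 genes were chosen by name, and all were found among the 54532 genes of the count table. The 10 libraries came from whole hearts of 8-week-old C57BL/6 mice, 5 injected with saline and 5 taken 24 h after lipopolysaccharide (LPS), the endotoxin of Gram-negative bacteria. Dose, sex and the time between saline and collection have no entry in the labels. The groups follow the labels' 24 h, although other deposited tables name the same LPS values for 3 h.

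IL-1α and IL-1β bind the receptor IL-1R1, which signals once the accessory chain IL-1RAP joins it, through the adaptor MyD88 that Toll-like receptors also use. The receptor antagonist, encoded by Il1rn, occupies IL-1R1 without recruiting IL-1RAP, and the decoy IL-1R2 binds the ligands without passing on a signal. IL-33 acts through ST2, the product of Il1rl1, which also uses IL-1RAP, and IL-18 is neutralised by the secreted protein encoded by Il18bp. IL-1β and IL-18 are made as precursors that caspase-1 cleaves in inflammasomes, and IL-1 depresses cardiac contraction. In counts per gene, forms such as membrane and soluble ST2 cannot be told apart.

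Il1a and Il1b lie beside each other on chromosome 2 and both rose, so the stretches before their RefSeq start sites are shown with that of Il1rn, also on chromosome 2 (build GRCm38.p6, minus strand for Il1a and Il1b, plus strand for Il1rn). Capitals mark TATAAA and the AP-1 motif TGANTCA. For Il1rn, which has more than 1 start site, the stretch was chosen to hold the match. The positions are chr2:129309973-129310072, chr2:129371140-129371239 and chr2:24336660-24336759.
Il1a, bases -100 to -1: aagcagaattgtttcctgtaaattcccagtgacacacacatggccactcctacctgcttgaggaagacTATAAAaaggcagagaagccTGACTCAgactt
Il1b, bases -100 to -1: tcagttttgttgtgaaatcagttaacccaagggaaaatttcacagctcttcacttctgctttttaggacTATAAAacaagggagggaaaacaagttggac
Il1rn, bases -200 to -101: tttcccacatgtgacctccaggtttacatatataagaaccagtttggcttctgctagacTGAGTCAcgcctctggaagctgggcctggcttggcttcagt

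Both strands of the 250 bases before each start were searched, in 15 windows of the 10 genes. TATAAA, added after the sequences were seen, began 32 bases before the start of Il1a and 31 bases before that of Il1b. It was also found in both Il33 windows, at -203 and -29, and on the other strand of Il18, and 12.4% of all 32851 windows hold it. TGANTCA was found in Il1a at -12 and, among the Il1rn windows, only in the first, at -141, against 6.75% of all windows. The STAT motif TTCNNNGAA (7.02% of windows) was found in Il1r2, and the NF-kappaB motif (3.90%) in the second window of Il1r1. The interferon element ISRE (2.98%) and the PU.1 motif GAGGAAGT (2.44%) were in no window of the 10 genes. The AP-1 and STAT motifs are the same pattern on both strands, so each such match is found on both. A match is a description of letters and not evidence of binding.

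Depth was similar across libraries, at 14607969 to 17012372 reads. The 6 cardiomyocyte markers did not pass the test, and their summed level was 29650 to 37450 CPM (counts scaled to library size) in saline and 31970 to 34180 CPM in LPS libraries. Saline replicate 5 stood apart from the other saline libraries, and not only in the family genes. Of the IL-1 target genes described below, it held 11121 of 12344 saline reads of Icam1 and 2569 of 2705 of Sele, but 0 of 3 of Csf2. The endothelial marker Kdr was at 114.8 CPM in it, against a mean of 345.7 CPM in saline replicates 1 to 4. In the family genes it was the highest saline library for 9 and the lowest for Il1rl1, so the main results are given both with and without it. The labels do not name cages, litters or batches, and the p-values measure only the spread between these mice.

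Of the 10 genes, 9 passed the filter on low counts. After LPS 7 of these rose, 0 fell and 2 did not pass (quasi-likelihood test of edgeR), where 39.9% of the 13864 genes tested changed, 18.9% rising and 21.0% falling. The median log2 fold change was 2.47 for the 9 genes and -0.02 for all tested genes. All 4 agonists rose, as did Il1rn and Il18bp among the antagonists and Il1rap among the receptors, while Il1r1 and Il1rl1 did not pass. Without saline replicate 5 all 10 genes were tested, and 9 rose and Il1rl1 fell, where 21.0% of 14123 genes rose and 22.9% fell. In the 7 rising genes every LPS library lay above every saline library, a separation seen in 14.4% of tested genes. Without saline replicate 5, Il1r1 and Il1r2 joined them, 9 of 10, against 18.0% of tested genes.

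**Figure D1:**
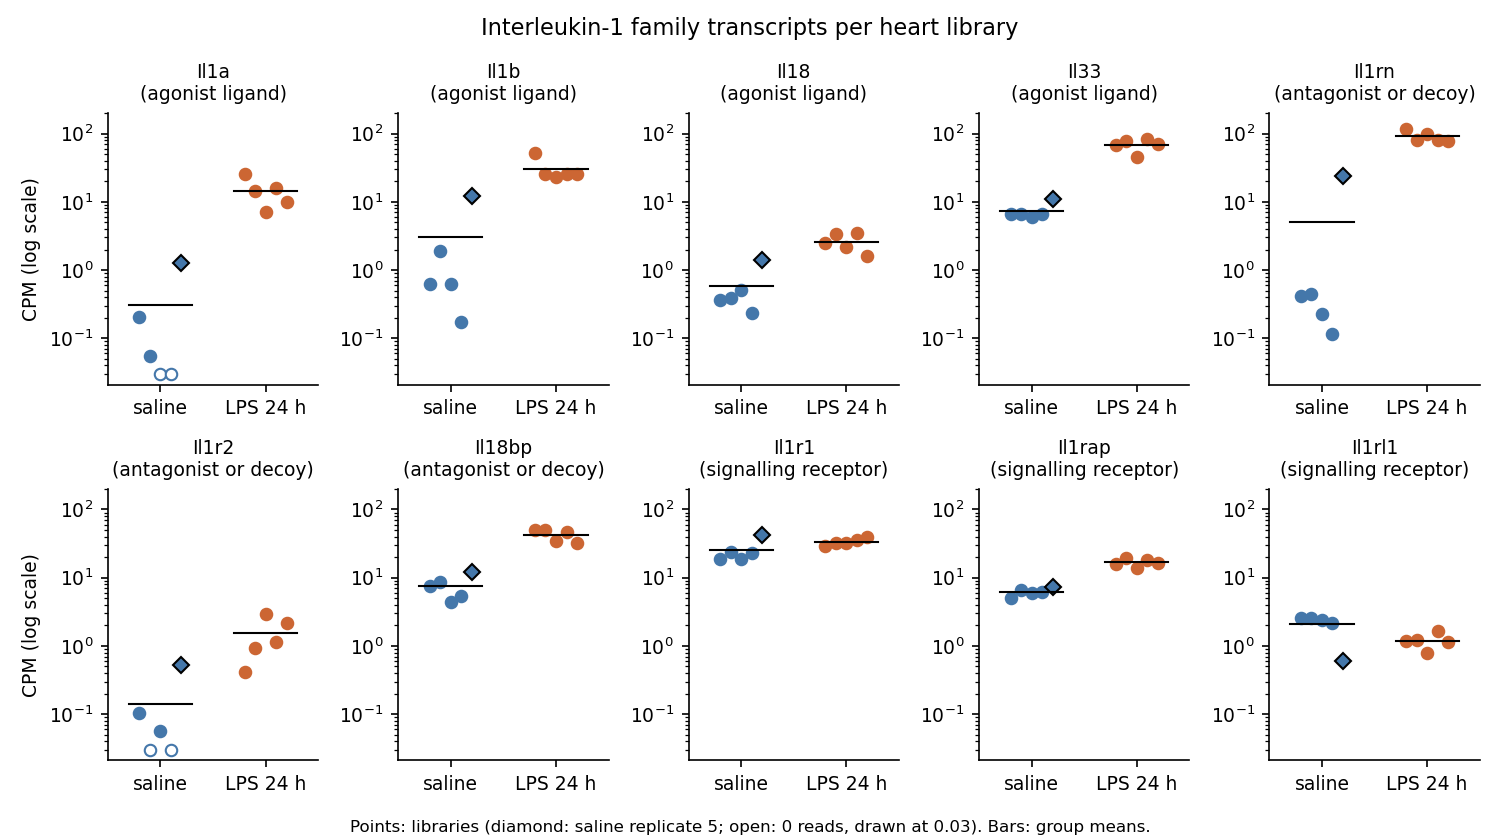
CPM of each gene (log axis) in the 5 saline and 5 LPS libraries, each point a library and each bar a group mean; open points mark 0 reads. Every LPS library lies above every saline library for 7 genes, and saline replicate 5 (diamond) is the highest saline library in all panels but Il1rl1, where it is the lowest.

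Among the agonists, Il1b (chromosome 2, 129364570 to 129371139), the secreted form of IL-1 made chiefly by myeloid cells, was at 0.625, 1.89, 0.616 and 0.173 CPM in saline replicates 1 to 4 and at 12.1 CPM in saline replicate 5. LPS replicates 1 to 5 had 51.1, 25.7, 22.9, 25.4 and 25.4 CPM. LPS replicate 1 was about double the others, which lay close together. Il1b rose with a log2 fold change of 3.31 ± 0.92 (SE, edgeR adjusted p = 0.0202), and of 5.17 ± 0.50 without saline replicate 5 (adjusted p = 2.68e-05). Its call was lost without saline replicate 2 (adjusted p = 0.0522).

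Il1a (chromosome 2, 129299610 to 129309972), the form held in cells and released on damage, had 4, 1, 0, 0 and 21 reads in saline replicates 1 to 5. In LPS libraries it was at 25.3, 14.5, 7.12, 16.0 and 9.95 CPM. LPS replicate 1 was again the highest, and LPS replicate 3 the lowest for both IL-1 genes. The log2 fold change was 5.59 ± 0.78 (SE, edgeR adjusted p = 0.000452), the largest of the 9 tested genes with all libraries, and 7.56 ± 0.66 without saline replicate 5. Against saline replicates 1 to 4, which had 5 reads together, the ratio of reads per scaled library size was 208, with a 95% counting interval of 88.7 to 641 that covers counting error only.

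Il33 (chromosome 19, 29925114 to 29960718), a nuclear alarmin of barrier and stromal cells, was at 6.56, 6.68, 6.05 and 6.53 CPM in saline replicates 1 to 4, a narrow range, and at 11.0 CPM in saline replicate 5. LPS libraries had 68.5, 77.1, 45.5, 82.5 and 70.2 CPM. It had the smallest adjusted p of the tested family genes, with a log2 fold change of 3.22 ± 0.20 (SE, edgeR adjusted p = 2.43e-07), and 3.41 ± 0.16 without saline replicate 5. LPS replicate 3 was the lowest LPS library here too.

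Il18 (chromosome 9, 50554827 to 50581840), an inducer of interferon-γ, was rare. It was at 0.365, 0.389, 0.504, 0.231 and 1.42 CPM in saline and at 2.49, 3.34, 2.15, 3.52 and 1.60 CPM in LPS replicates 1 to 5. Saline replicate 5 was close to LPS replicate 5, although the groups did not overlap. The rise had a log2 fold change of 2.16 ± 0.42 (SE, edgeR adjusted p = 0.000869), from 51 saline and 179 LPS reads. Without saline replicate 5, which held 24 of the 51 saline reads, it was 2.78 ± 0.35 (adjusted p = 7.96e-06).

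Among the antagonists and decoys, Il1rn (chromosome 2, 24336853 to 24351494) was at 0.417, 0.445, 0.224 and 0.116 CPM in saline replicates 1 to 4 and at 24.1 CPM in saline replicate 5. LPS libraries had 118, 81.5, 97.5, 79.9 and 77.6 CPM. Of 428 saline reads, 406 came from saline replicate 5, the widest gap of any family gene. With all libraries the log2 fold change was 4.18 ± 1.28 (SE, edgeR adjusted p = 0.0310), a call lost without any 1 of saline replicates 1 to 4 or LPS replicates 1 to 4 (adjusted p = 0.0505 to 0.0645), in fits that kept saline replicate 5. Without saline replicate 5 it was 8.19 ± 0.25 (adjusted p = 4.54e-12), the largest of the 10 genes.

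Il18bp (chromosome 7, 102014885 to 102018690) was at 7.55, 8.68, 4.48, 5.43 and 12.0 CPM in saline and at 49.7, 49.6, 34.1, 46.3 and 32.2 CPM in LPS replicates 1 to 5. It rose with a log2 fold change of 2.47 ± 0.25 (SE, edgeR adjusted p = 1.82e-05), and the groups were far apart. The change was 2.70 ± 0.21 without saline replicate 5 (adjusted p = 1.4e-07). It shares 80 bases with Numa1 on the other strand, whose reads went from 9220 to 6011. Reads of both genes may mix there, since no strand setting is stated. The same limit applies to Il1a, which shares 8217 bases with Gm14023 on the other strand (59 saline and 39 LPS reads). It also applies to Il18, which shares 355 bases with Bco2 on the other strand (68 saline and 42 LPS reads).

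Il1r2 (chromosome 1, 40074079 to 40125231) was the scarcest of the 10 genes in saline hearts and did not pass the filter with all libraries. It had 2, 0, 1, 0 and 9 reads in saline and 6, 12, 48, 14 and 30 reads in LPS replicates 1 to 5. LPS replicates 3 and 5 were the highest, and LPS replicate 1, the highest for Il1a and Il1b, was below saline replicate 5 (0.415 against 0.534 CPM). In a fit without the filter its log2 fold change was 3.43 ± 0.80 (SE, edgeR adjusted p = 0.00640), and without saline replicate 5, where it passed the filter, 4.98 ± 0.79 (adjusted p = 0.000110).

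The summed level of 8 neutrophil markers was 1.34 to 4.06 CPM among saline replicates 1 to 4, 25.2 CPM for saline replicate 5 and 20.8, 21.2, 43.2, 14.1 and 36.5 CPM in LPS replicates 1 to 5. As for Il1r2, a gene known in neutrophils, LPS replicates 3 and 5 were the highest. Of these markers 2 of 4 tested rose (median log2 fold change 1.84), 4 of 4 rose without saline replicate 5 (median 3.40), and 0 were at 0 reads in all libraries. Of 5 monocyte markers 4 rose and Ccr2 fell, with sums of 25.4 to 46.3 CPM in saline and 103 to 172 CPM in LPS libraries. Vcan made up most of these sums, with means of 29.13 CPM in saline and 124.5 CPM in LPS libraries. The means of the sums were 34.85 and 135.1 CPM. Of 8 macrophage markers 1 rose and 3 fell. Over all tested genes 18.9% rose and 21.0% fell, and without saline replicate 5 the shares were 21.0% and 22.9%. The part of these cells in the IL-1 family levels was not tested.

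Among the signalling receptors, Il1r1 (chromosome 1, 40225080 to 40317257) was at 18.6, 23.5, 18.7, 22.7 and 41.8 CPM in saline and at 28.9, 31.8, 32.3, 35.3 and 39.2 CPM in LPS replicates 1 to 5. Saline replicate 5 was above all LPS libraries, and the other 4 saline libraries below all of them. The log2 fold change was 0.42 ± 0.21 (SE, edgeR adjusted p = 0.128), and 0.68 ± 0.12 without saline replicate 5 (adjusted p = 0.000203).

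Il1rap (chromosome 16, 26581704 to 26730117), the chain shared by the IL-1 and IL-33 receptors, was at 5.0 to 7.24 CPM in saline and 14.0 to 19.3 CPM in LPS libraries. It was the member least moved by saline replicate 5, with log2 fold changes of 1.44 ± 0.13 with it (SE, edgeR adjusted p = 2.17e-06) and 1.51 ± 0.14 without.

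Il1rl1 (chromosome 1, 40429570 to 40465415) went the other way. It was at 2.55, 2.61, 2.41 and 2.20 CPM in saline replicates 1 to 4, at 0.593 CPM for the fifth and at 1.17, 1.24, 0.797, 1.64 and 1.16 CPM in LPS libraries. Saline replicate 5 was the lowest of all 10 libraries. With it the log2 fold change was -0.80 ± 0.35 (SE, edgeR adjusted p = 0.0857), and without it Il1rl1 fell (-1.03 ± 0.25, adjusted p = 0.00320), with no overlap between the groups.

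ST2 is known from endothelial and mast cells. All 6 endothelial markers fell, where 21.0% of all tested genes did. Their sums were 1165 to 1372 CPM for the first 4 saline libraries, 747 CPM for the fifth and 439 to 569 CPM after LPS. The 4 tested mast cell markers did not pass, and the sum of 5 was 10.9 to 16.2, 5.04 and 6.39 to 12.2 CPM, in the same order. Of the ILC2 and regulatory T cell markers 2 of 3 tested rose, where 18.9% of all tested genes did. The sum of 5 was 29.0 to 34.7, 39.0 and 35.5 to 54.3 CPM, again in that order. Rora made up most of it, at means of 29.0 CPM in saline and 39.5 CPM in LPS libraries. In whole hearts, fewer cells of a type and less RNA per cell cannot be told apart, and the part of these markers in the level of Il1rl1 was not tested.

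**Figure D2:**
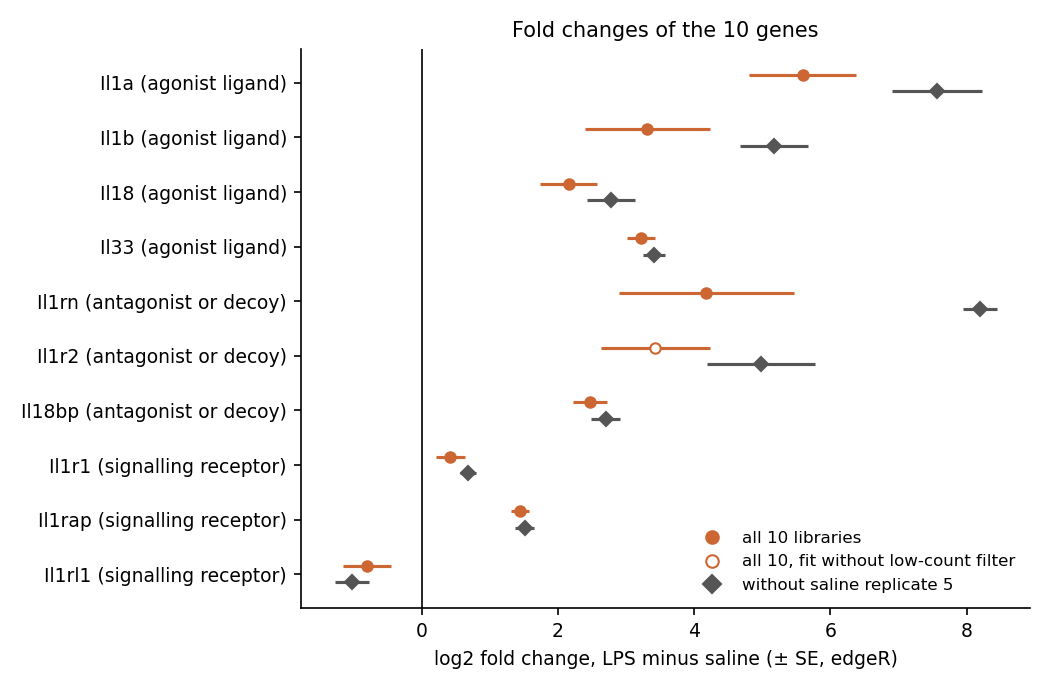
Log2 fold change (LPS minus saline, edgeR, bars ± SE) of each gene with all 10 libraries (circles; open where the fit had no filter on low counts) and without saline replicate 5 (diamonds). Il1rn moves from 4.18 to 8.19 when that library is left out, and Il1rap from 1.44 to 1.51.

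Levels can be compared between genes per length, as FPKM (reads per kilobase and library size, the authors' values). The order then depends on the gene lengths used. In saline replicates 1 to 4 the order by mean was Il1r1 (3.45 FPKM), Il33 (2.35), Il18bp (2.27), Il1rap (0.546), Il1b (0.456), Il18 (0.380), Il1rl1 (0.373), Il1rn (0.0571), Il1a (0.0352) and Il1r2 (0.0221). In LPS hearts the order was Il33 (25.6 ± 5.30 FPKM, SD, n = 5), Il1rn (17.6 ± 3.31), Il1b (17.0 ± 6.70), Il18bp (15.1 ± 3.02), Il1a (7.93 ± 3.80), Il1r1 (5.66 ± 0.694), Il18 (2.73 ± 0.832), Il1rap (1.59 ± 0.195), Il1r2 (0.858 ± 0.573) and Il1rl1 (0.188 ± 0.0463). Among LPS libraries the ranges of neighbours in this order overlapped except between Il1r1 and Il18. Il1rl1 was the last in LPS hearts. The place of Il1rn in saline hearts rested on saline replicate 5: it was the eighth without that library (0.0571 FPKM) and the fifth with it (0.969 FPKM), and Il1rl1 was the seventh and the eighth.

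Antagonist, binding protein or receptor genes were then set against an agonist partner, and the decoy Il1r2 against the signalling receptor Il1r1. Each was a ratio of reads per kilobase within a library, with 0.5 reads added, which does not depend on library scaling. Of 5 pairs, 3 changed in a two-sided exact permutation test (all assignments of 5 and 5 libraries, adjusted over the 5 pairs), and for these p = 0.00794 was the smallest the test can give. The 2 others did not pass.

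The ratio of Il1rn to Il1b was 0.234, 0.0849, 0.135, 0.246 and 0.685 in saline and 0.795, 1.09, 1.47, 1.08 and 1.05 in LPS replicates 1 to 5. Per kilobase, Il1rn was thus below Il1b in all saline libraries and close to it in LPS libraries. That level depends on the gene lengths used, 5535 bases for Il1rn and 1907 for Il1b, while the shift between groups does not. By reads alone, Il1rn was above Il1b in saline replicate 5 (406 against 204) and in the LPS libraries together (6391 against 2104). Saline replicates 1 to 4 had 8, 8, 4 and 2 Il1rn reads. The log2 ratio went from -2.22 ± 1.13 to 0.11 ± 0.31 (SD, n = 5 per group), a difference of 2.33 (exact permutation p = 0.00794, adjusted p = 0.0132) and of 2.75 without saline replicate 5.

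Against Il1a the antagonist did not shift beyond the spread. The log2 ratio of Il1rn to Il1a was 1.14 ± 1.22 in saline and 1.27 ± 0.64 in LPS libraries (SD, n = 5 per group, exact permutation p = 0.881). The difference was 0.12, and 0.52 without saline replicate 5 (exact permutation p = 0.429). The saline values of this ratio rest on 0 to 21 Il1a reads per library.

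The ratio of the decoy Il1r2 to Il1r1 was 0.00394 to 0.0450 in saline and 0.0518 to 0.307 in LPS libraries. The highest saline value, that of saline replicate 5, was just under the lowest LPS value, that of LPS replicate 1. The log2 ratio differed by 3.40 (exact permutation p = 0.00794, adjusted p = 0.0132, n = 5 per group) and by 3.87 without saline replicate 5. Saline replicates 2 and 4 had 0 reads of Il1r2, so the size of the difference depends on the added reads, and it was 2.90 with 1 read added. The decoy stayed below the signalling receptor in every library.

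For IL-18 no shift between binding protein and ligand passed the test. The log2 ratio of Il18bp to Il18 was 2.28 ± 0.71 in saline and 2.48 ± 0.27 in LPS libraries (SD, n = 5 per group, exact permutation p = 0.508), and Il18bp was above Il18 in every library, by 2.82 to 7.15 times. The log2 difference was 0.19, and 0.0 without saline replicate 5. A p that misses the threshold does not show that the ratios were equal.

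For IL-33 the receptor and the ligand parted. The ratio of Il1rl1 to Il33 was 0.164, 0.165, 0.168 and 0.142 for saline replicates 1 to 4, 0.0237 for saline replicate 5 and 0.00696 to 0.00851 for LPS libraries. Values within each group were close apart from saline replicate 5, which lay between the groups. The log2 ratio differed by -3.86 (exact permutation p = 0.00794, adjusted p = 0.0132, n = 5 per group) and by -4.41 without saline replicate 5.

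Summed over the family, with no test, the 4 agonists had 2.71 to 3.90 FPKM for saline replicates 1 to 4, 12.9 FPKM for saline replicate 5 and 35.6 to 70.9 FPKM for LPS libraries. The 3 antagonist and decoy genes had 1.64 to 3.09, 9.11 and 28.1 to 40.9 FPKM. The ratio of these sums was 1.17 to 1.88 in saline and 1.10 to 1.76 in LPS libraries, and the groups overlapped. Il33 was the largest agonist, with means of 2.35 FPKM in saline replicates 1 to 4 and 25.6 FPKM in LPS libraries. None of the 3 antagonist and decoy genes was paired with it, so the sums can hide shifts within pairs. The ratio of Il1rn to summed Il1a and Il1b was 0.0788 to 0.23 for saline replicates 1 to 4. It was 0.624 for saline replicate 5 and 0.538 to 1.13 for LPS libraries.

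**Figure D3:**
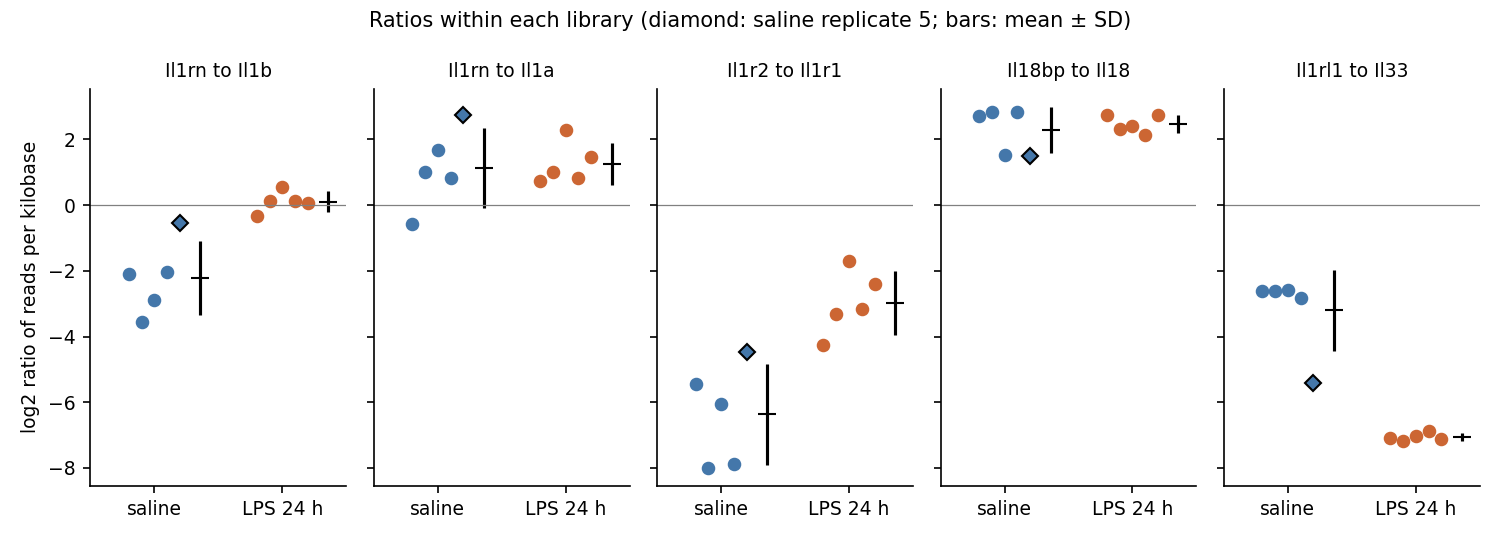
Log2 ratio of reads per kilobase for 5 pairs of genes in each library (points; diamond, saline replicate 5), with group mean ± SD. The groups do not overlap for Il1rn to Il1b, Il1r2 to Il1r1 and Il1rl1 to Il33, and overlap for Il1rn to Il1a and Il18bp to Il18.

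Il1r2, Il1r1 and Il1rl1 lie in a row of family receptor genes on chromosome 1. From Il1r2 the row runs through Il1r1, Il1rl2 (the IL-36 receptor, 40324610 to 40367562), Il1rl1, Il18r1 (40465552 to 40500854) and Il18rap (40515362 to 40551705), the latter 2 forming the IL-18 receptor. Il1rl2 rose, with means of 3.29 CPM in saline and 5.63 CPM in LPS (SD 0.331 and 1.52, n = 5 each; log2 fold change 0.77, edgeR adjusted p = 0.00583, and 0.0556 with total count scaling). Il18rap also rose, with means of 0.394 and 1.27 CPM (SD 0.356 and 0.143; 1.70, adjusted p = 0.0109), and at 2.31 without saline replicate 5. Il18r1, whose gene begins just past Il1rl1, was at 1.52 ± 0.736 and 1.61 ± 0.479 CPM (adjusted p = 0.866).

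Sigirr, an inhibitory receptor of the family on chromosome 7, fell, with means of 5.53 CPM in saline and 0.661 CPM in LPS (SD 2.19 and 0.260, n = 5 each). Its log2 fold change was -3.05 ± 0.35 (SE, edgeR adjusted p = 1.21e-05), and -3.23 without saline replicate 5, and the groups did not overlap. Of the 11 other family genes in the table, 4 were tested, with 2 rising and 1 falling, where 18.9% of all tested genes rose and 21.0% fell. Among the rest, Il1f5, Il1f8, Il1f10 and Il1rapl2 had 0 reads in all libraries, Il1f6 had 3 reads in LPS libraries, Il1rapl1 had 1 and 5, and Il1f9 had 26 saline and 71 LPS reads.

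Of 15 tested genes of processing and release, 7 rose and 1 fell, with a median log2 fold change of 0.53, where 18.9% of all tested genes rose and 21.0% fell. When saline replicate 5 was left out, 9 of these 15 rose and 1 fell. The largest rises were in Casp4, a sensor caspase for intracellular LPS (3.54 ± 1.03 SE, edgeR adjusted p = 0.0251), Casp1, the processing enzyme of IL-1β and IL-18 (2.21 ± 0.52), Gsdmd, the pore protein through which they leave (1.92 ± 0.17), and the DNA sensor Aim2 (1.77 ± 0.21). The call of Casp4 was lost without any 1 of saline replicates 1 to 4 (adjusted p up to 0.0562). In the fit without saline replicate 5 Casp4 was at 5.68 (adjusted p = 3.56e-09) and Casp1 at 3.01 (adjusted p = 8.51e-09). The calpain gene Capn1 fell (-0.43 ± 0.11). Nlrp3, the best known inflammasome sensor, was at 2.38 on that scale (adjusted p = 0.0704) and rose without saline replicate 5 (4.53, adjusted p = 3.61e-10), while Pycard, its adaptor, was at -0.20 (adjusted p = 0.442). These 2 genes were chosen after their values were seen. The neutrophil proteases Elane, Ctsg and Prtn3 had at most 2 reads in saline and 0 in LPS libraries.

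Of 33 tested genes of receptor signalling, 15 rose and 4 fell, with a median of 0.27, against the same 18.9% and 21.0% of all tested genes. Leaving out saline replicate 5 gave 18 rising and 4 falling. Map3k8, a kinase upstream of MAP kinases, the adaptor Myd88, the inhibitory kinase Irak3 and the NF-kappaB subunit Rel rose most, at 2.96 ± 0.57, 2.69 ± 0.49, 2.59 ± 0.39 and 2.58 ± 0.30 on the log2 scale (± SE; edgeR adjusted p = 0.000107 to 0.00349). Map3k8 was at 3.79 and Myd88 at 3.39 when saline replicate 5 was left out. Map2k6 (-0.98 ± 0.29), a kinase of p38, and Tab1 (-0.46 ± 0.13), a partner of the kinase TAK1, fell most.

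Known IL-1 target genes, most of which LPS also induces directly, rose in 19 of 24 tested and fell in 1. Over all tested genes 18.9% rose and 21.0% fell. The median log2 fold change of the list was 4.15, and 6.31 without saline replicate 5. The neutrophil chemokine Cxcl5 (log2 fold change 8.51), the growth factors Csf2 (7.93) and Csf3 (6.71) and the cytokine Il6 (6.65) had the largest rises with all libraries, and Mmp9, a gelatinase, fell (-1.21 ± 0.30, edgeR adjusted p = 0.00480). The 4 that did not pass were Icam1, Vcam1, Sele and Ccl7 (log2 fold changes 2.72 to 3.95, edgeR adjusted p = 0.0619 to 0.131). Without saline replicate 5 the count rising was 23, where 21.0% of all tested genes rose. The order of the largest rises also rested on that library. Csf3 had 0 reads and Il6 had 1 read in saline replicates 1 to 4, against 7388 and 14946 reads in LPS libraries, so their fitted fold changes without saline replicate 5 depend on the prior count. Both then ranked first, followed by Saa3, Ptx3 (10.36) and Cxcl2 (9.61), all above Cxcl5 (9.28) and Csf2 (7.68). Saa3, Ptx3 and Cxcl2, an acute phase protein, a pentraxin and a neutrophil chemokine, were chosen after their values were seen.

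Targets of IL-18 and IL-33 were mostly scarce. Of 13 genes 6 were tested, 2 rose and 0 fell, with a median of 0.24, where 18.9% of all tested genes rose and 21.0% fell. When saline replicate 5 was left out, 2 rose and 1 fell, where 21.0% of all tested genes rose and 22.9% fell. The gene that fell was Ccl24 (log2 fold change -1.06, edgeR adjusted p = 0.00634). Ccl22, a chemokine for type 2 and regulatory T cells, rose, with means of 0.222 and 6.85 CPM (SD 0.0788 and 3.46, n = 5 each; edgeR adjusted p = 9.72e-07). Chil3, also a monocyte marker, rose by 2.43 on the log2 scale, although its groups overlapped (saline up to 0.573 CPM, LPS from 0.4145 CPM). Ifng, the main product of IL-18 action, had 1 saline and 9 LPS reads, Il5 had 2 and 1, and Il13 had 0 in all libraries. Ccl17, also not tested, had 4 saline and 91 LPS reads. In the fit without the filter its log2 fold change was 4.63 ± 0.70 (SE, edgeR adjusted p = 2.62e-06).

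**Figure D4:**
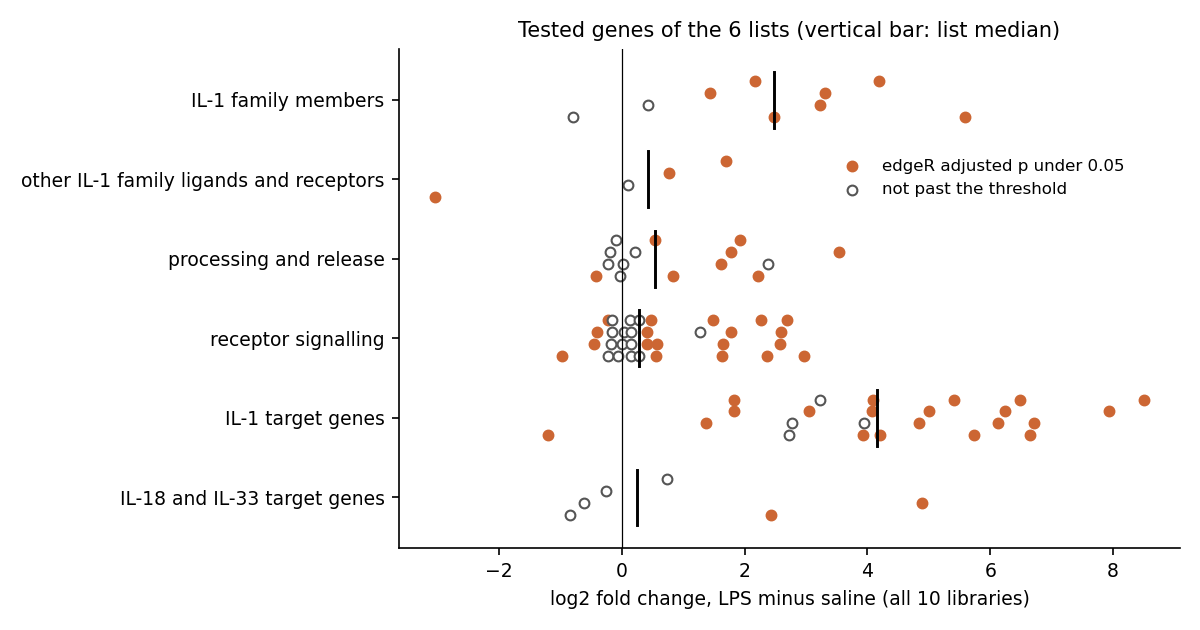
Log2 fold change (LPS minus saline, all 10 libraries) of each tested gene in the 6 lists, filled where the edgeR adjusted p was under 0.05, with a bar at each list's median. The IL-1 target list has the highest median, 4.15 (6.31 without saline replicate 5), and the IL-18 and IL-33 target list the lowest, 0.24.

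The gene most like each member across the 10 libraries was sought among 9644 genes, by Pearson's r of log2 CPM, as a description of libraries that share the contrast. It was Vwa5a for Il33 (r = 0.998), Rnd1 for Il1rn (0.998), Pdlim1 for Il1a (0.996) and Il18bp (0.991), Cd200 for Il1rap (0.995), Isg15 for Il1b (0.993), Rdh10 for Il18 (0.990), Gnai3 for Il1r1 (0.972) and Meox2 for Il1rl1 (0.929).

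In the authors' deposited table of Reactome terms, interleukin-1 family signalling held 58 differential genes of 106, 53 up and 5 down, with an adjusted p of 0.00319. The authors' deposited table lists 6 members in any term: Il1a, Il18, Il33, Il1r2, Il18bp and Il1rap. Il1b, Il1rn, Il1r1 and Il1rl1 are in no term of it.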

How the data were processed

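Libraries of heart RNA were made with a TruSeq kit of Illumina, per the labels' protocols. The authors deposited raw read counts per gene and FPKM values (for gene length in kilobases and library size) in 1 table. Bowtie 0.12.2 and the mm9 build are listed, with no role, per the submitters' processing notes. Counter, annotation and strand setting: not given in the sources used here. All 10 members had the start and end of GENCODE M21, so coordinates are GRCm38. The authors' deposited enrichment table holds p-values and adjusted p-values per Reactome term, with no tool stated. The 20 value columns of 2 further FPKM tables were not used. In both, the 5 columns named for 3 h equal those named for 24 h.

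Counts were fitted with edgeR 4.0.16 in R 4.3.3: filterByExpr (minimum count 10, minimum total 15), TMM factors, a robust quasi-likelihood F-test and Benjamini-Hochberg adjustment over 13864 genes, threshold 0.05. CPM use TMM-scaled library sizes. SE were derived from F. In data simulated for LPS against saline with 13864 genes, 36 of 50 genes changed 2-fold and 47 of 50 changed 4-fold were recovered, and 4 of 147 calls were false. Only 50 genes each were changed 1.5, 2, 4 and 8-fold, up or down, and no library was made to stand apart. In the data 39.9% of tested genes changed and saline replicate 5 stood apart, so these rates need not hold for them.

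Alternatives were other scalings and filters, DESeq2 1.42.0, limma 3.58.1 voom, a replicate block, leaving out each library and, chosen after seeing the data, the ratio of FPKM means. Named genes are the 10 members, the tested genes of the list of other family genes and, from each further list, the 4 largest rises and 2 largest falls past the threshold, with the gene most like each tested member (mean of at least 5 CPM; log2 CPM with a prior count of 2). Members and lists were chosen with earlier results of these data known. Other named genes were chosen after their values were seen.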

Additional observations from a re-analysis of the deposited data

Results flagged for a closer look

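In groups of 5 libraries, a value was looked at again where its gap to the nearest library exceeded 0.71 of the group's range. For independent, normally distributed values chance gives about 1 in 20 such groups. Scarce genes need not follow that form, and the ratios share genes with the CPM groups, so the rate need not hold here. Of 30 groups tested, 10 were marked, and 9 of these were saline replicate 5. It was the high library for Il1a (1.25 CPM), Il1b (12.1 CPM), Il18 (1.42 CPM), Il33 (11.0 CPM), Il1rn (24.1 CPM), Il1r2 (0.534 CPM) and Il1r1 (41.8 CPM). It was the low library for Il1rl1 (0.593 CPM) and for the log2 ratio of Il1rl1 to Il33 (-5.40). LPS replicate 1 was the high library for Il1b, at 51.1 CPM.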

How the results depend on the processing

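Il1a, Il18, Il33, Il18bp and Il1rap kept their direction and call in every alternative run. The median of all genes moved by -0.16 (log2) under upper quartile scaling and by -0.27 under total count scaling. With upper quartile scaling 4407 genes fell, and the numbers falling were 1 family member (Il1rl1, -0.97, edgeR adjusted p = 0.0394), 2 processing genes, 8 signalling genes and 1 IL-18 or IL-33 target. With total count scaling 1711 genes rose and 5774 fell, and 1 member (Il1rl1, -1.10, adjusted p = 0.0203), 4 processing genes, 10 signalling genes and 1 IL-18 or IL-33 target fell, while 1 other family gene rose. With a filter of 1 CPM in 5 libraries 1 other family gene and 1 IL-18 or IL-33 target rose, with fewer genes tested. With DESeq2 2 processing genes fell. Without the filter Il1rn was at 4.19 (adjusted p = 0.0512), with more genes tested. Il18r1, never past the threshold, turned to -0.06 (upper quartile) and -0.17 (total count), and ranged from -0.10 (without saline replicate 1 or LPS replicate 5) to 0.37 with each library left out. Some members kept their calls at other sizes: limma voom gave 7.01 for Il1rn, 4.67 for Il1b and 6.83 for Il1a, and the replicate block 6.40 for Il1rn and 4.16 for Il1b. The causes were not tested where none is given.

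Leaving out each library in turn gave log2 fold changes of 3.87 to 8.19 for Il1rn, 3.0 to 5.17 for Il1b, 0.33 to 0.68 for Il1r1 and -1.03 to -0.66 for Il1rl1, with 6 to 9 members rising and 0 to 1 falling, and 0 to 1 IL-18 or IL-33 targets falling. The log2 ratio of Il1rn to Il1a ranged from -0.31 to 0.52, with -0.31 without saline replicate 1 and -0.13 without LPS replicate 3. The replicate numbers did not pair the samples (correlations of deviations -0.07 to 0.18 for the same number). With the replicate block Il1r1 passed, at 0.48 (edgeR adjusted p = 0.0153). In the block of within-number differences the smallest exact sign-flip p is 0.0625, so the 3 ratio differences of 2.33, 3.40 and -3.86 could not pass (adjusted p = 0.104). Il1r2 and Il18 rest on few reads, which limits their precision.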
